A study of Mus musculus with 8 samples.

Results

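The genes described here are the 39 that make cholesterol and fatty acids, or that switch those pathways on, in cultured mouse oligodendrocyte precursor cells kept at 31.5 °C or at 37 °C. They were chosen by name: every probe set annotated to the gene's symbol and to no other gene was taken. Older synonyms were allowed, and 0 symbols had to be updated. Of the 39, 38 had a probe set of their own and all 38 were bright enough to be tested, among 11525 genes tested in all. The remaining one, Acat2, was not analysed here. ICR mouse embryos, 15 days old, gave the cells as mixed primary cultures of cerebral hemisphere, grown for 5 days in medium with 10% fetal bovine serum. They were then moved to serum-free medium for a further 48 hr at one of the 2 temperatures, with 4 arrays at each (replicates 1 to 4). No genotype or drug differed between the groups, and 37 °C served as the control. The labels mention 3 mice per group and do not say that the 4 replicates were separate cultures, so errors and p-values measure only the spread between these samples.

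Cholesterol is built from acetyl-CoA through mevalonate, squalene and lanosterol, and the last enzymes trim lanosterol to cholesterol. Fatty acids are made by acetyl-CoA carboxylase and fatty acid synthase, lengthened by the elongase cycle in the endoplasmic reticulum and given double bonds by desaturases. The transcription factors SREBP-2 and SREBP-1 (genes Srebf2 and Srebf1) drive many of these genes when sterol is short, and Insig1 holds them back. Oligodendrocytes make large amounts of cholesterol and very long-chain lipids for myelin.

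SREBP factors bind sterol regulatory elements and act with NF-Y, which binds the CCAAT box, and with Sp1, which binds GC boxes. The 250 bases before the annotated start were therefore searched in RefSeq promoters of GRCm38.p6, on both strands; 32 of the 39 genes were matched, with 39 start sites among 32851 in all. The CCAAT box (letters CCAAT) was present in 25 of the 39 windows (64.1%) and in 33.8% of all windows. The GC box (letters GGGCGG) was present in 30 of them (76.9%), against 32.7% of all. An E-box, CACGTG, lay in 5 of the 39 (12.8%), those of Dhcr7, Elovl5, Hsd17b7, Insig1 and Sc5d, and in 6.02% of all windows. The core letters of the sterol regulatory element, TCACNCCAC, were found in 1 of the 39, Hmgcs1, and in 1.05% of all windows. A match of letters is a description of the window and not evidence of a bound site. Nor does the lack of a match show that a site is absent, as only these letters and 250 bases were searched. The windows of Hmgcs1, Msmo1 and Sc5d are shown because they hold the sterol element (Hmgcs1) or belong to sterol genes that passed the test described below (Msmo1 and Sc5d); capitals mark the CCAAT box on either strand (ATTGG is its reverse) and TCACNCCAC.
Hmgcs1 promoter, chr13:119690101-119690350 (plus strand): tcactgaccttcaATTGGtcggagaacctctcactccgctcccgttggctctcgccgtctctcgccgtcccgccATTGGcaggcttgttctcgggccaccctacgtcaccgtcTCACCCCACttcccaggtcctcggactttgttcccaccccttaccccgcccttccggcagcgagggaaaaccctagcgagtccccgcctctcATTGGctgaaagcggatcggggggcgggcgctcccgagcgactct
Msmo1 promoter, chr8:64733579-64733828 (minus strand): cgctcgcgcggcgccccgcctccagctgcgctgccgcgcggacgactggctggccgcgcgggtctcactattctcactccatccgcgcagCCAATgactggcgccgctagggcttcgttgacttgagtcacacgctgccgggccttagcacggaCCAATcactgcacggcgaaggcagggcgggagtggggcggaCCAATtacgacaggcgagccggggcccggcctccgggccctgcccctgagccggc
Sc5d promoter, chr9:42264301-42264550 (minus strand): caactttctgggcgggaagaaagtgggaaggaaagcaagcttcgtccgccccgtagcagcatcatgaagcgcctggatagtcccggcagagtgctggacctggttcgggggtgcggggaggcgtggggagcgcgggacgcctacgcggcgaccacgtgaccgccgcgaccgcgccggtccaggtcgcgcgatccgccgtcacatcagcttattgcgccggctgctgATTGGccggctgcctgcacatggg
In Hmgcs1 the sterol element began 137 bases before the start, with CCAAT boxes at 237, 176 and 45 bases. Msmo1 had CCAAT boxes at 160, 96 and 55 bases before the start. Sc5d had 1 at 24 bases and its E-box at 98.

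The windows of the elongase genes that passed the test are shown as well. Neither held a CCAAT box or TCACNCCAC, so neither has a letter in capitals. Other elongation genes, Elovl1, Elovl5 and Tecr, did have a window with a CCAAT box.
Elovl6 promoter, chr3:129532136-129532385 (plus strand): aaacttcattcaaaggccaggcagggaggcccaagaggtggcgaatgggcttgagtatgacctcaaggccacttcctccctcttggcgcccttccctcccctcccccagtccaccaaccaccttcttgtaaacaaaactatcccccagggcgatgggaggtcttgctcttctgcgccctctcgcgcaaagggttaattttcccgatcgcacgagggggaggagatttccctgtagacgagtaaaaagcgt
Elovl7 promoter, chr13:108214154-108214403 (plus strand): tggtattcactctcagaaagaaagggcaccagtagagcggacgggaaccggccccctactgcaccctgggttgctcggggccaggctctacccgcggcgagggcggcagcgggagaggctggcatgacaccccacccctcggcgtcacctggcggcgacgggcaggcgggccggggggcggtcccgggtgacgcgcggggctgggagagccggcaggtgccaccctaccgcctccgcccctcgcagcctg
The Elovl7 window held GC boxes at 150, 75 and 17 bases before the start, and that of Elovl6 held none of the 4 motifs.

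The genes of these pathways did not all lie on one side. At 31.5 °C 4 of the 38 were lower, the late sterol enzymes Msmo1 and Sc5d and the elongases Elovl6 and Elovl7, by 1.27- to 1.54-fold, and 0 were higher (limma, adjusted p below 0.05 over all genes; at an unadjusted p below 0.05, 11 were lower and 2 higher, with 15.5% and 15.6% of all genes). Across all genes tested 7.77% were lower and 7.64% higher, so the 10.5% lower here lay near the background. No desaturase, no enzyme of fatty acid synthesis and no enzyme of the mevalonate or squalene steps passed. The median difference of the 38 was -0.06 on the log2 scale (31.5 °C minus 37 °C, used throughout), against -0.0017 for all genes. Below 0 were 25 of the 38 (65.8%) and 50.3% of all genes. With the replicate number as a block, 9 of the 38 were lower (Dhcr7, Ebp, Elovl1, Elovl6, Elovl7, Msmo1, Nsdhl, Pmvk and Sc5d) and 3 were higher (Insig1, Mvk and Srebf1). In that paired fit 15.8% of all genes were lower and 15.0% higher.

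By the order of the arrays, the share of the 38 that was lower exceeded that of all genes, and the share higher fell below it. The signals of 7 of the 38 genes (18.4%) were lower on every array at 31.5 °C than on any at 37 °C, against 10.5% of all genes, and those of 1 were higher without overlap, against 11.7% of all. Within same-numbered pairs 16 of the 38 (42.1%) were lower in all 4 pairs, against 25.1% of all genes. Only 5 of the 38 (13.2%) were higher in all 4 pairs, where 25.3% of all genes were. Scaling the arrays by their median signal instead left none of the 4 calls, with 0 of 38 lower and 0 higher.

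**Figure D1:**
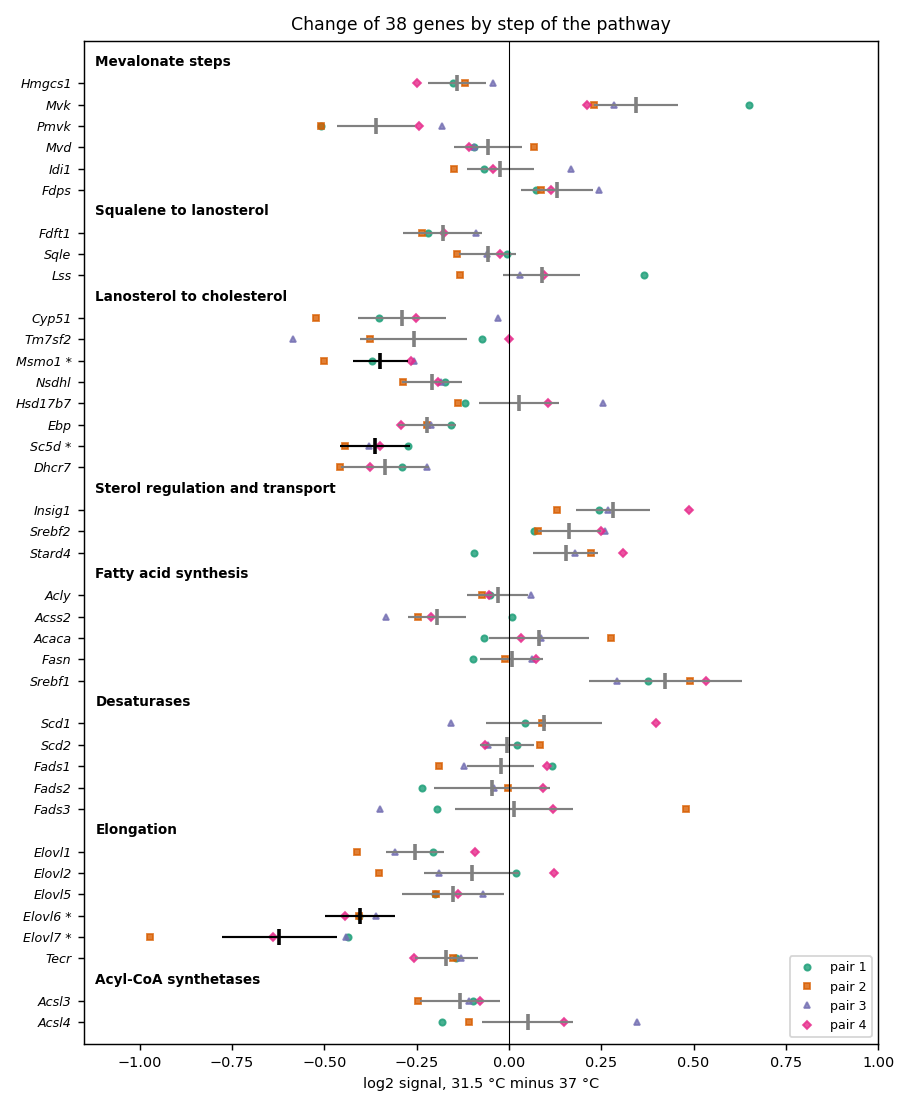
Difference of each of the 38 genes by step of the pathway, on the log2 scale (31.5 °C minus 37 °C). Coloured points are the 4 same-numbered pairs, vertical ticks the fitted difference and horizontal bars its SE, black with an asterisk for genes that passed the test. The late sterol genes and the elongases lie mostly left of 0, down to -0.62 for Elovl7, and the desaturases lie around 0.

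Oligodendrocyte markers differed most among the cell types examined. Of 16 tested oligodendrocyte markers, 13 were lower at 31.5 °C and 0 higher, with a median of -0.78, and their summed signal was 17091 to 23366 at 31.5 °C against 30823 to 37480 at 37 °C. At 31.5 °C 2 of the 20 with a probe set, Ermn and Nkx6-2, had means below the floor of 9.80 set for low signals. Of 14 precursor markers 2 were higher, Pdgfra (0.45) and Lhfpl3 (0.67), and 3 lower, Gpr17 (-0.84), Nkx2-2 (-0.51) and Vcan (-0.46). With the replicate block 2 of the 14 were higher and 4 lower. Their median was -0.18, with 11 below 0 and 3 above. The calls of Nkx2-2 and Vcan ended with median scaling (limma adjusted p = 0.203 and 0.185). Olig1 had means of 6727 ± 390 (SD, n = 4 arrays, as for every ± below) at 31.5 °C and 6752 ± 646 at 37 °C. Astrocyte markers were lower in 1 of 15, neuronal markers higher in 3 and lower in 1 of 15, and 0 of the 15 microglial and 0 of the 9 fibroblast and vessel markers (at an unadjusted limma p below 0.05, 2 and 0 lower). With the replicate block, 6 of the astrocyte, 6 of the microglial, 5 of the neuronal and 3 of the fibroblast and vessel markers were lower. In that paired fit 2 of the astrocyte and 3 of the neuronal markers were higher, and C1qb, a microglial complement gene, was at -1.17 (limma adjusted p = 0.0659, and 0.00117 with the block). Marker signals of other cells were present all the same, with Gfap, the astrocyte filament, at 2245 ± 968 and 3518 ± 1480, and Lyz2, a myeloid lysozyme, at 5641 ± 1417 and 8256 ± 1505 (limma adjusted p = 0.0953, and 0.0106 with the replicate block). Fewer cells of a type and less RNA per cell cannot be told apart in these bulk samples. The part of cell composition in the differences below was not tested.

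The mevalonate steps turn acetyl-CoA into farnesyl diphosphate, the building block of squalene. Of their 6 measured genes 0 passed in either direction, with 1 higher and 1 lower at an unadjusted limma p below 0.05, and their median was -0.04. Mvk, mevalonate kinase, had signals of 269, 267, 228 and 263 at 31.5 °C (replicates in order, here and below). At 37 °C they were 172, 228, 188 and 227. All 4 arrays at 31.5 °C lay at or above the highest at 37 °C, without overlap. The difference was 0.34 ± 0.11 (SE), or 1.27-fold, with an adjusted p of 0.076 (limma), and 0.0348 with the replicate block. Pmvk, phosphomevalonate kinase, which acts next, went the other way. Its signals of 308, 305, 293 and 338 at 31.5 °C stood against 438, 434, 332 and 400 at 37 °C. The groups overlapped through the low replicate 3 at 37 °C. The difference was -0.36 ± 0.11, with adjusted p values of 0.0502 (limma) and 0.0229 with the replicate block.

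Hmgcs1, the synthase that makes HMG-CoA for the pathway, had the difference -0.14 ± 0.08 (limma adjusted p = 0.266). Its signals were 6247, 6802, 6305 and 6374 at 31.5 °C and 6936, 7390, 6500 and 7573 at 37 °C. Each pair was lower at 31.5 °C, but the highest cold array stood above the lowest warm one. The 95% interval of -0.32 to 0.04 leaves room for a fall of moderate size or for none. Mvd, which decarboxylates mevalonate diphosphate, differed by -0.06 ± 0.09, and Idi1, the isomerase of its product, by -0.02 ± 0.09. Fdps, which joins these units to farnesyl diphosphate, differed by 0.13 ± 0.10 (0.06 by the mean of its probe sets). Such a mean, here and below, takes in probe sets too dim to be tested, as 1438150_at of Fdps was. The adjusted p values of Mvd, Idi1 and Fdps lay between 0.411 and 0.893 (limma).

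None of the 3 enzymes from farnesyl diphosphate to lanosterol passed in limma, adjusted or unadjusted. Sqle, squalene epoxidase, had 2221 ± 61.3 at 31.5 °C and 2314 ± 154 at 37 °C, a difference of -0.06 ± 0.08 with a 95% interval of -0.23 to 0.12. Fdft1, squalene synthase, had 1685 ± 151 and 1913 ± 225 (-0.18 ± 0.11, and -0.07 by the mean of its probe sets). Its other tested probe set was at -0.23, and the rest were too dim to be tested. Lss, which closes the ring to lanosterol, had 428 ± 42.2 and 402 ± 40.6 (0.09 ± 0.10), and its other tested probe set was at -0.04. The mean of all its probe sets was -0.19, with 1420014_at, too dim to be tested, at -0.61.

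The 8 enzymes from lanosterol to cholesterol were the sterol step with the lowest median, -0.27. Of these 2 were lower (25%, against 7.77% of all genes) and 0 higher (against 7.64%). Below 0 were 7 of the 8 (87.5%) and 50.3% of all genes. The summed signal of the 8 was 5021 to 5364 at 31.5 °C and 5862 to 7104 at 37 °C, without overlap. The median of the step was -0.22, -0.41, -0.22 and -0.26 in pairs 1 to 4. Msmo1, the methylsterol monooxygenase that starts removal of the C4 methyl groups, had signals of 1403, 1375, 1424 and 1447 at 31.5 °C. At 37 °C they were 1814, 1943, 1703 and 1741. The cold arrays were tightly grouped and all lay below the warm ones. The fall was 1.27-fold, -0.35 ± 0.07, with an adjusted p of 0.0176 (limma). That p rose to 0.301 with median scaling and 0.242 with the mean of its probe sets. The mean adds only 1459627_at, which was too dim to be tested (means of 13.9 and 16.3). The adjusted p of Msmo1 was 0.0507 and 0.0506 without replicates 2 and 3 at 31.5 °C, respectively, and below the threshold without any other single array.

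Sc5d, the sterol C5 desaturase near the end of the pathway, had signals of 440, 453, 395 and 395 at 31.5 °C. At 37 °C its signals were 532, 616, 514 and 503. Every cold array lay below every warm array, by 0.27 to 0.44 within pairs on the log2 scale. The fall was 1.29-fold, -0.36 ± 0.09 (limma adjusted p = 0.0345, and 0.00986 with the replicate block). Leaving out any 1 array except replicate 4 at 37 °C ended the call, with adjusted p from 0.0501 to 0.0959. Median scaling (0.34) and the mean of its probe sets (0.244) ended it too.

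Another 3 late enzymes passed only in the paired fit. Dhcr7, the last reductase, had signals of 436, 503, 429 and 408 at 31.5 °C and 533, 690, 500 and 529 at 37 °C. The highest cold array just exceeded the lowest warm one, and each pair was lower in the cold. Its difference was -0.34 ± 0.12, with adjusted p values of 0.0918 (limma) and 0.0152 with the replicate block. Ebp, the sterol isomerase, had 385, 342, 363 and 331 against 430, 400, 420 and 406, without overlap (-0.22 ± 0.08; limma adjusted p = 0.0908, and 0.0392 with the replicate block). Nsdhl, the dehydrogenase that follows Msmo1, had 891, 907, 875 and 817 against 1005, 1107, 994 and 933. Its groups were separate as well, by a narrow margin (-0.21 ± 0.08; limma adjusted p = 0.118, and 0.0453 with the replicate block).

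Cyp51, the lanosterol demethylase that opens this step, had 934 ± 78.5 and 1148 ± 176. Its difference was -0.29 ± 0.12, with adjusted p values of 0.133 (limma) and 0.0577 with the replicate block. Tm7sf2, a sterol C14 reductase, had 269 ± 34.9 and 324 ± 53.6 (-0.26 ± 0.14; limma adjusted p = 0.263). Hsd17b7, the ketoreductase that acts after Nsdhl, was the one late gene above 0, at 0.03 ± 0.11, with its sign turned without replicate 3 at 37 °C (-0.05) and a value of 0.31 by the mean of its probe sets (limma adjusted p = 0.0534). Over the 17 measured sterol enzymes together, 2 were lower (11.8%) and 0 higher, 13 were below 0 (76.5%), and the median was -0.18. Of all genes 7.77% were lower, 7.64% higher and 50.3% below 0. In the paired fit with the replicate block 6 of the 17 were lower and 1 higher, against 15.8% and 15.0% of all genes.

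**Figure D2:**
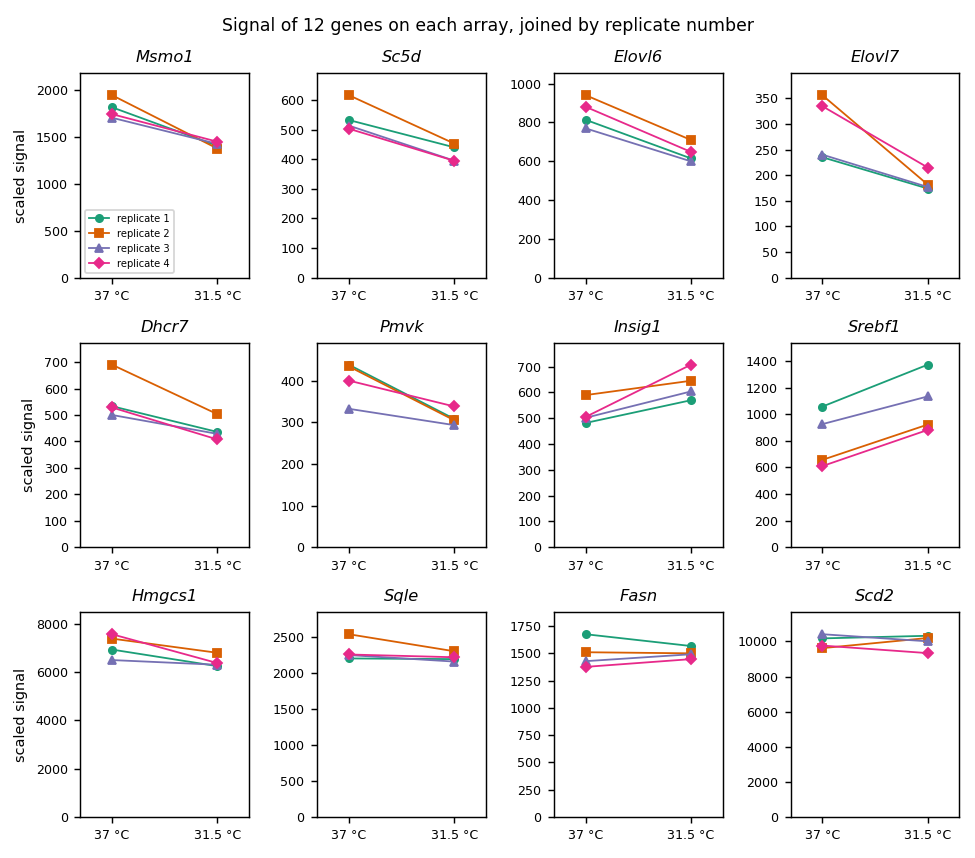
Scaled signal of 12 genes on each array (vertical axes from 0), with lines joining arrays of the same replicate number at 37 °C and 31.5 °C. All 4 lines fall for Msmo1, Sc5d, Elovl6, Elovl7, Dhcr7, Pmvk and Hmgcs1 and rise for Insig1 and Srebf1, while those of Fasn and Scd2 cross.

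The regulators lay on the other side of 0. Insig1, the endoplasmic reticulum protein that retains SREBP precursors and is itself induced by SREBP, had signals of 570, 645, 604 and 708 at 31.5 °C. At 37 °C they were 482, 590, 502 and 505. Each pair was higher in the cold, although the warm replicate 2 exceeded the cold replicate 1. The difference was 0.28 ± 0.10, or 1.22-fold, with adjusted p values of 0.091 (limma) and 0.0384 with the replicate block. Srebf2, whose product activates the sterol genes, had 882 ± 24.3 and 789 ± 71.1 (0.16 ± 0.09; limma adjusted p = 0.228). Stard4, a soluble carrier of cholesterol, had 379 ± 32.7 and 340.0 ± 17.6 (0.15 ± 0.09; limma adjusted p = 0.276).

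Srebf1, which encodes the activator of fatty acid synthesis genes, had the highest difference of the 38 genes. Its signals were 1372, 922, 1134 and 882 at 31.5 °C, in order of replicate number, and 1057, 657, 925 and 610 at 37 °C. Replicates 1 and 3 were the high ones at both temperatures, so the groups overlapped while every pair was higher in the cold by 0.29 to 0.53. The difference of 0.42 ± 0.21 (1.34-fold) did not pass unpaired, with an adjusted p of 0.203 (limma), and passed with the replicate block (0.00844). It also passed with the block in each of the 4 fits that left out 1 pair.

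The enzymes of fatty acid synthesis were flat or unresolved, with 0 of the 5 genes of this group, Srebf1 included, past the threshold and a median of 0.01. Fasn, fatty acid synthase, had signals of 1566, 1499, 1491 and 1446 at 31.5 °C and 1675, 1509, 1427 and 1375 at 37 °C. The 2 groups covered the same range, and the 95% interval of the difference, -0.18 to 0.20, bounds a change in either direction. Acly, which makes cytosolic acetyl-CoA from citrate, had 2413 ± 133 and 2466 ± 171, with an interval of -0.22 to 0.16. Acaca, the acetyl-CoA carboxylase, had 355 ± 29.1 and 339 ± 58.3 (0.08 ± 0.14, and 0.24 by the mean of its probe sets). Acss2, which makes acetyl-CoA from acetate, had 361, 330, 332 and 328 against 359, 391, 418 and 379. Only the first pair failed to be lower in the cold (-0.20 ± 0.08; limma adjusted p = 0.132). By the mean of its probe sets the difference was -0.0027. That mean includes 1446542_at, too dim to be tested, at 0.36, while the other tested probe set was at -0.17.

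Desaturases put double bonds into fatty acids, Scd1 and Scd2 at the C9 position and Fads1 and Fads2 in polyunsaturated fatty acids. By the brightest probe set of each gene, none of the 5 passed in limma, adjusted or unadjusted, or with the replicate block. Their differences then ran from -0.05 to 0.09. The dimmer probe set of Scd1, tested singly, was higher at 0.70 (limma adjusted p = 0.0367). Scd2 had signals of 10326, 10199, 10010 and 9337 at 31.5 °C and 10177, 9621, 10416 and 9768 at 37 °C. The arrays were interleaved, and the 95% interval of the difference was -0.17 to 0.16. Scd1 had 1389, 1345, 1269 and 1136 against 1347, 1265, 1415 and 861. Replicate 4 was the lowest at both temperatures, and the difference of 0.09 ± 0.16 had an interval of -0.26 to 0.45.

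Fads1 had 1980 ± 66.0 and 2018 ± 199, with an interval of -0.23 to 0.18, and Fads2 had 1434 ± 177 and 1499 ± 341, with an interval of -0.40 to 0.31. Fads3, a related desaturase, had 179 ± 23.9 and 179 ± 33.8. The signs of Scd1, Scd2, Fads1, Fads2 and Fads3 each turned under at least 1 alternative, so no direction is given for this step.

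The elongation genes lay lower. Of the 6 genes 2 were lower (33.3%, against 7.77% of all genes) and 0 higher (against 7.64%). All 6 lay below 0, from -0.62 to -0.10 with a median of -0.21, where 50.3% of all genes did. Elovl7, an elongase of saturated and monounsaturated long-chain fatty acids, had the largest fall of the 38. Its signals were 174, 182, 177 and 215 at 31.5 °C and 235, 356, 240 and 335 at 37 °C. Even the lowest warm array was above the highest cold one, and the warm replicates 2 and 4 stood highest. The fall was 1.54-fold, -0.62 ± 0.15 (limma adjusted p = 0.0298, and 0.00909 with the replicate block). The adjusted p was 0.0628 with median scaling, 0.0687 with no filter and 0.0765, 0.0721 and 0.0788 without replicates 1, 2 and 3 at 31.5 °C. It was 0.0689 and 0.0695 without replicates 2 and 4 at 37 °C.

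Elovl6, which carries palmitate to stearate, had signals of 615, 710, 599 and 648 at 31.5 °C. At 37 °C its signals were 814, 941, 770 and 881. The groups were separate, and the 4 pairs were close to each other at -0.41, -0.41, -0.36 and -0.44. The fall was 1.32-fold, -0.40 ± 0.09 (limma adjusted p = 0.0241, and 0.00613 with the replicate block). Its adjusted p was 0.203 with median scaling (0.0156 with the block added). With the mean of its probe sets, of which 1442656_at was too dim to be tested, it was 0.0543. It was 0.0662 and 0.0711 without replicates 1 and 3 at 31.5 °C, and 0.0617 and 0.0562 without replicates 2 and 4 at 37 °C.

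Elovl1, the elongase of saturated very long-chain fatty acids found in myelin lipids, had 702, 682, 697 and 779 at 31.5 °C and 809, 907, 863 and 831 at 37 °C. The groups did not overlap (-0.25 ± 0.08; limma adjusted p = 0.0609, and 0.0464 with the replicate block), and the mean of its probe sets gave -0.15. Its other tested probe sets were at -0.19 and -0.21, and that mean adds 1443820_x_at, too dim to be tested. Elovl5, an elongase of polyunsaturated fatty acids, had 2367 ± 308 and 2633 ± 386 (-0.15 ± 0.14), and Elovl2, which acts on longer ones, had 236 ± 27.1 and 254 ± 39.4 (-0.10 ± 0.13). Tecr, the reductase that completes each elongation cycle, had 3635 ± 250 and 4089 ± 266 (-0.17 ± 0.08; limma adjusted p = 0.21). The summed signals of the oligodendrocyte markers and of the 6 elongation genes were both lower on every array at 31.5 °C. That of the elongation genes was 7303 to 8235 there and 8553 to 9732 at 37 °C. Tecr and Elovl5, the brightest of the 6, weigh most in that sum, and each overlapped between temperatures. A link between the 2 sums was not tested.

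Set side by side, the steps differed in where their members lay. The median of the elongation genes was -0.20, -0.38, -0.25 and -0.20 in pairs 1 to 4, and that of the desaturases was 0.02, 0.08, -0.12 and 0.10. Elongation was thus the lower in each of the 4 pairs. The 17 sterol enzymes had -0.15, -0.22, -0.09 and -0.18, below the desaturases in 3 of the 4. With median scaling the medians became -0.12 for elongation, -0.09 for sterol enzymes and 0.08 for desaturases, since that scaling moves all genes by nearly the same amount. No test of these medians was made, since the genes were chosen with results known.

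**Figure D3:**
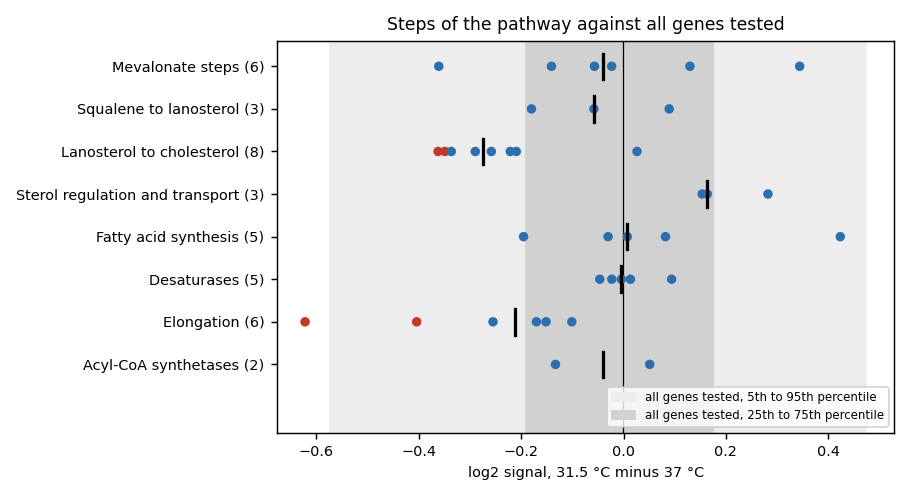
Difference of each gene (points, log2, 31.5 °C minus 37 °C) by step, with the number of genes in brackets, vertical ticks for the median and red for genes that passed the test. Shading shows the 25th to 75th (-0.19 to 0.17) and 5th to 95th (-0.57 to 0.47) percentiles of all 11525 genes; 7 of the 8 late sterol genes lie below -0.19, and Elovl7 alone lies outside the wider band.

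Acyl-CoA synthetases activate fatty acids for use. Acsl3 had 710 ± 69.8 and 779 ± 78.9 (-0.13 ± 0.11), and Acsl4, which prefers arachidonate, had 326 ± 51.8 and 313 ± 24.9 (0.05 ± 0.12). Neither passed (limma adjusted p = 0.444 and 0.818).

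The array reads many genes through several probe sets, and 94 belonged to the 38 genes. Tested singly among 22519 probe sets, 80 of the 94 were bright enough, and 9 (11.2%) were lower and 1 (1.25%) higher, against 6.76% and 6.46% of all. The 9 belonged to Msmo1, Sc5d, Elovl6, Elovl7 and Acsl3. Elovl7 had 6 tested probe sets, all with differences below 0, and 4 of them passed. The dimmer 1424098_at had 77.2 ± 17.4 at 31.5 °C and 177 ± 63.8 at 37 °C, -1.16 ± 0.24 (limma adjusted p = 0.017), larger than the -0.62 of the brightest one. Both tested probe sets of Elovl6 passed, the second, 1417403_at, at -0.42 ± 0.11 (limma adjusted p = 0.0336).

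For other genes the probe sets differed. Acsl3 was at -0.13 by its brightest probe set and at -0.56 by the mean of its probe sets (limma adjusted p = 0.015), and 1428387_at had 44.7 ± 3.94 and 108 ± 21.7, -1.26 ± 0.15 (limma adjusted p = 0.00182). Scd1 was at 0.09 by its brightest, while 1415965_at had 290 ± 25.7 and 183 ± 49.8 without overlap, 0.70 ± 0.18 (limma adjusted p = 0.0367); the mean of both was 0.40 (0.139). The dimmer tested probe sets of Hsd17b7 were at 0.28 ± 0.11 and 0.34 ± 0.16 (limma adjusted p = 0.136 and 0.204). The remaining probe sets of Sc5d were at -0.16 and -0.14 (limma adjusted p = 0.55 and 0.625), smaller than the -0.36 of the brightest. Which transcript each probe set reads was not analysed here, so a gene's isoforms and its total cannot be separated.

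**Figure D4:**
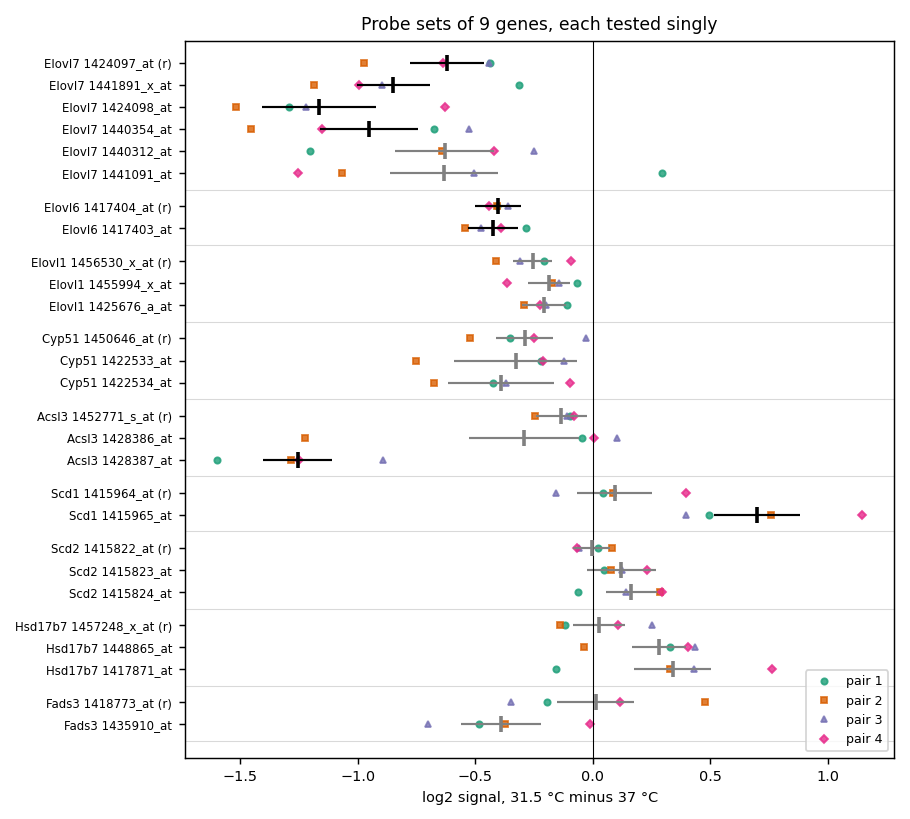
Difference of every tested probe set of 9 genes (log2, 31.5 °C minus 37 °C), with pairs as points, the fitted difference as ticks and its SE as bars, black where it passed; (r) marks the brightest probe set, which stands for the gene. All 6 of Elovl7 lie below 0, while those of Scd1 and Acsl3 differ among themselves, from 0.09 to 0.70 and from -1.26 to -0.13.

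Genes next to these pathways were read from wider lists. Of 4 other enzymes of isoprenoid supply 1 was lower, Acat1, the mitochondrial acetyl-CoA acetyltransferase (-0.34 ± 0.09; limma adjusted p = 0.0316). That call ended with median scaling (0.374), on averaging its probe sets (-0.21; 0.151) and without replicate 2, 3 or 4 at 31.5 °C or replicate 1, 2 or 4 at 37 °C (0.0618 to 0.0904). None of 11 sterol-sensing genes passed (at an unadjusted limma p below 0.05, 4 were higher and 1 lower). Those with the smallest p included Scap, the escort of SREBP (0.26 ± 0.10; limma adjusted p = 0.0974, and 0.0233 with the replicate block), and Spring1, a SREBP pathway factor (0.31 ± 0.09; 0.0521, and 0.0289 with the block). With the mean of its probe sets Scap turned to -0.02 and Spring1 was at 0.12 (limma adjusted p = 0.951 and 0.404). Mbtps1, the protease that first cuts SREBP, was at 0.17 ± 0.07 (limma adjusted p = 0.142) and at 0.44 by the mean of its probe sets, where it passed (0.0301). Nr1h3, the oxysterol receptor LXR alpha, was at -0.49 ± 0.15 (limma adjusted p = 0.0611, and 0.00857 with the replicate block). In the paired fit 2 of the 11 were higher and 2 lower. Of 15 genes of sterol export and storage 1 was lower, Gramd1a, a carrier of plasma membrane cholesterol, at 488 ± 44.6 against 730 ± 76.0 (-0.58 ± 0.11; limma adjusted p = 0.01, and 0.0536 with median scaling). Abcg1, a sterol exporter, was at -0.75 ± 0.24 (limma adjusted p = 0.0633, and 0.00369 with the replicate block), and at -0.42 by the mean of its probe sets (0.23). In the paired fit 2 of the 15 were lower.

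The wider elongation list, which holds dehydratases of the cycle and ceramide enzymes, had 3 of 9 lower and 0 higher. Fa2h, the fatty acid 2-hydroxylase of myelin galactolipids, had signals of 270, 250, 229 and 210 at 31.5 °C. At 37 °C they were 394, 582, 375 and 470. The groups were well apart (-0.91 ± 0.15; limma adjusted p = 0.00688), and the call held in all 23 alternatives. Hacd4, a dehydratase of the elongation cycle, had 98.8 ± 21.2 and 197 ± 46.0 (-0.99 ± 0.21; limma adjusted p = 0.0164). Its paralogue Hacd2 had 699 ± 118 and 990 ± 133 (-0.51 ± 0.14; limma adjusted p = 0.0422), a call lost in 10 of the 23 alternatives, among them the mean of its probe sets (-0.27; 0.141). Cers2, the ceramide synthase for very long chains, was at 0.26 ± 0.11 (limma adjusted p = 0.125).

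On the supply side of fatty acids 2 of 15 genes were higher and 0 lower. Me1, malic enzyme, which makes NADPH for fatty acid synthesis, had 1508 ± 237 and 947 ± 136 (0.67 ± 0.14; limma adjusted p = 0.0182). Mcat, the mitochondrial malonyl transferase, had 244 ± 24.4 and 187 ± 6.70 (0.37 ± 0.09; limma adjusted p = 0.0276). The call for Me1 ended without replicate 2 at 37 °C (0.0511) or replicate 3 at 31.5 °C (0.0552). That for Mcat ended without any 1 array except replicate 1 at 31.5 °C, with adjusted p up to 0.0691, and with median scaling (0.0599). The fatty acid transporters Slc27a1 and Slc27a4 were at 0.61 and -0.24 (limma adjusted p = 0.0769 and 0.0841, and 0.0259 and 0.0499 with the replicate block). In the paired fit 5 genes of this list were higher and 2 lower.

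Of 19 genes of fatty acid oxidation 2 were higher and 1 lower (6 and 2 with the replicate block), with a median of 0.13. Eci2, an enoyl-CoA isomerase, had signals of 2015, 1864, 2027 and 1655 at 31.5 °C and 1398, 1233, 1380 and 1125 at 37 °C. The groups were separate (0.56 ± 0.10; limma adjusted p = 0.0109), and the call held in all 23 alternatives. Cpt1a, the carnitine transferase that admits long chains to mitochondria, had 1465 ± 141 and 1104 ± 153 (0.41 ± 0.12; limma adjusted p = 0.0484). Its neuronal relative Cpt1c had 725 ± 67.8 and 1008 ± 126 (-0.47 ± 0.12; limma adjusted p = 0.0296). Both calls ended with median scaling (0.12 and 0.249) and on leaving out most single arrays (up to 0.122 and 0.0746). The mean of its probe sets put Cpt1a at 0.14 (0.521). Echs1, the enoyl-CoA hydratase, was at 0.33 (limma adjusted p = 0.113, and 0.0174 with the replicate block).

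**Figure D5:**
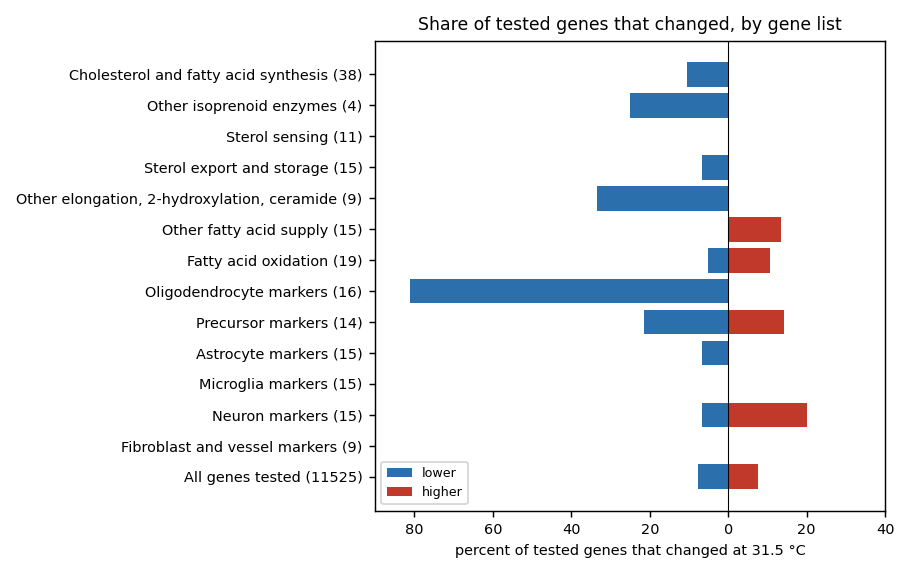
Percent of tested genes of each list (number in brackets) that were lower (blue, left) or higher (red, right) at 31.5 °C by limma. The 38 genes of cholesterol and fatty acid synthesis have 10.5% lower against 7.77% of all 11525 genes, and the oligodendrocyte markers 81.2% lower.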

How the data were processed

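The deposited values are linear intensity values per probe set, which the authors produced with MAS5, per the submitters' processing notes; version and scaling target are not given in the sources used here, and no genome build was needed for them. Of 45101 probe sets 64 controls were left out, and 34945 carried 1 gene symbol. Those with several symbols (932) or none (9160) stood for no gene. Each array was scaled to a common trimmed mean (2% at each end; factors 0.848 to 1.60), values under 9.80 (25th percentile) were set to 9.80, and log2 values were computed. The probe set of highest mean stood for its gene, and 11525 genes with a mean of at least 36.3 were tested.

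The difference was fitted with limma 3.58.1 in R 4.3.3 (lmFit, eBayes, two-sided), with p-values adjusted across all 11525 genes (Benjamini-Hochberg, threshold 0.05). Same-numbered arrays correlated at 0.541, 0.422, 0.497 and 0.614 in their deviations from the group means, and others at most at 0.0566, so the numbers pair the arrays; replicate block values are given where they change a call. Each member was named, with up to 4 genes of smallest p in a wider list and up to 3 in a marker list, of which some stand only in counts. The members and lists were chosen with earlier results of these data known. Tested on simulated data (10 simulations, 200 changed genes), the procedure recovered 37.7% of changes of 0.5 and 80.9% of changes of 1, with 4.23% false calls. The simulated arrays were independent, so these rates do not cover the pairing seen in the real arrays. Nor do they cover the larger share of changed genes there, where 1775 were called. Sizes below 0.5, where all members except Elovl7 lay, were not simulated. Alternatives were other scalings, floors, filters and probe set rules, an intensity trend, the block, and leaving out arrays or pairs. The mean of probe sets took every probe set of a gene, also those too dim to be tested. Promoter sequences came from RefSeq.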

Additional observations from a re-analysis of the deposited data

Results flagged for a closer look

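In groups of 4 arrays, 1 array stood apart from the rest in 4 of 76 groups of member signals; chance alone flags about 1 group in 20. For Mvk, replicate 3 at 31.5 °C was low at 228, with the next array at 263. For Sqle, replicate 2 at 37 °C was high at 2542, with the next at 2260. For Acss2, replicate 1 at 31.5 °C was high at 361, with the next at 332. For Fads3, replicate 2 at 37 °C was low at 128, with the next at 194.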

How the results depend on the processing

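Over 23 alternatives the 38 genes gave 874 values, of which 814 kept their side of the threshold, 29 lost a call, 31 gained one and 0 reversed a call. The 814 include values without a call whose sign turned, such as some of Scd2, Fads1 and Fasn. The count of lower genes, 4 as reported, was 0 with median scaling, 2 with the mean of probe sets, 9 with the replicate block, 3 with median scaling and the replicate block together, and 7 with the block without pair 3. Leaving out single arrays gave 0 to 4 (0 without replicate 3 at 31.5 °C, 1 without replicate 1 or 2 at 31.5 °C or replicate 2 at 37 °C, 2 without replicate 4 at 37 °C). The count of higher genes, 0 as reported (2 at an unadjusted limma p under 0.05), was 3 with the replicate block, 3 with median scaling added, and 1 with the block without each pair in turn. The fit with median scaling and the replicate block together and those without a pair were chosen after seeing the data. Median scaling alone was planned. Over all genes 1775 changed, against 725 with median scaling (62.6% of them higher, where 49.6% were as reported), 3548 with the replicate block, 3755 with both (69.2% higher) and 872 to 1591 without single arrays. Median scaling moved the median of all genes by 0.09. The sterol median of -0.18 was -0.091 with median scaling, block or not, and -0.22 to -0.12 without single arrays; it was -0.12 without replicate 2 at 37 °C. That of elongation, -0.21, was -0.12 with median scaling, block or not, and -0.26 to -0.18 without single arrays. The desaturase median of -0.0043 turned to 0.085 with median scaling, block or not, to 0.081 with the mean of probe sets, and to 0.017 and 0.013 with the block without pairs 1 and 3; it was -0.066 to 0.069 without single arrays. The causes were not tested. With 4 arrays a group, differences near 0.3 fell on either side of the threshold depending on the setting.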
